A study of Mus musculus with 18 samples.

Results

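Loss of Zfp36 in unchallenged epidermis was examined by RNA-seq in mock-treated skin, where 2 libraries from Zfp36 ΔK14 mice were compared with 3 libraries from Zfp36 fl/fl mice, out of 17 distinct libraries in the series. All mice carried floxed Zfp36 alleles on a C57BL/6 background. In ΔK14 mice a Cre recombinase under the human keratin 14 promoter, which is active in the basal layer of the epidermis and in the outer cells of the hair follicle, removed the gene, and fl/fl littermates served as controls. Live skin cells were sorted as EpCAM+ and CD45-, CD140a- and CD31-, although the labels name whole skin as the source. The animals were mock-treated, in contrast to those given the carcinogen DMBA and the tumor promoter TPA in the rest of the series, and their age at sampling is not given in the sources used here. The deposited table held 3 columns per genotype, but the values of ΔK14 replicates 2 and 3 did not differ in any gene, and this pair was treated as 1 library. Nothing in the labels says whether replicates were single mice or pools, so the tests measure the spread between these samples only.

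Zfp36 encodes tristetraprolin (TTP), a zinc finger protein that binds AU-rich elements in the 3′ untranslated region (UTR) of an mRNA and recruits the deadenylation and decay machinery. Its known targets include mRNAs of cytokines, growth factors and immediate early genes, and TTP limits its own mRNA in the same way. The hair follicle is the other source of variation that matters here. It cycles between growth (anagen), regression and rest (telogen), and during growth its lower part holds dividing matrix cells, pigment cells and the keratinizing layers of the hair shaft and inner root sheath. Follicles of a skin region tend to cycle together, so pieces of untreated skin can differ widely in expression with the phase they are in.

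The elements that TTP binds are shown for 4 mRNAs whose levels are given later in the text, as the first TTATTTATT nonamer of the longest annotated 3′ UTR with 10 bases on either side. The nonamer is in capitals, and bases are from the GENCODE M21 transcripts on GRCm38.
Zfp36, at chr7:28376951-28376979 on the minus strand: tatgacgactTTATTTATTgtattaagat
Tnf, at chr17:35199689-35199717 on the minus strand: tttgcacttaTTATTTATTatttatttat
Areg, at chr5:91148382-91148410 on the plus strand: tatttaagtgTTATTTATTttatagctca
Fos, at chr12:85477103-85477131 on the plus strand: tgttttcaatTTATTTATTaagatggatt
Tnf, which encodes a central inflammatory cytokine, held 5 overlapping or separate copies of the nonamer in its 3′ UTR, and the other 3 mRNAs held 1 copy each.

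Sequencing depth differed between the genotypes. Total counts were 4798903 to 9617985 in fl/fl and 3569609 and 2973405 in ΔK14, so both ΔK14 libraries were shallower than every fl/fl library, and depth and genotype cannot be told apart. Of 52636 genes in the table, 15920 had enough counts to be tested. Krt5 and Krt14, the keratins of basal keratinocytes, were at 1532 to 8032 and 671 to 5224 CPM (counts scaled to the library size). Ptprc, which encodes the leukocyte surface protein CD45, was at 0 to 0.616 CPM, and Pecam1, which encodes the endothelial CD31, at 9.96 to 36.9 CPM. Col1a1, a fibroblast collagen gene, was at 30.1 to 762 CPM, and its part in the results was not tested. Xist stood at 2337 to 3914 CPM in all 5 libraries, and the Y-linked Ddx3y and Eif2s3y were at 0, with no split by genotype in these sex-linked genes.

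Zfp36 itself (chr7:28376784-28380253, minus strand, GRCm38) was measured at 169, 751 and 640 CPM in fl/fl replicates 1, 2 and 3, and at 18.2 and 41.5 CPM in ΔK14 replicates 1 and 2. Both ΔK14 libraries were below all fl/fl libraries, and in both genotypes replicate 1 held the least. The gene was thus 3.08 log2 lower in the ΔK14 library when the replicate 1 libraries were compared, and 4.0 log2 lower when ΔK14 replicate 2 was set against fl/fl replicates 2 and 3 (log2 CPM with 2 CPM added). Fitted without regard to replicate 1, the log2 fold change was −4.13 (SE 0.86, edgeR quasi-likelihood adjusted p = 1.0). With a term that sets replicate 1 of both genotypes apart, it was −3.71 (SE 0.27, edgeR adjusted p = 0.00732). Of these 2 edgeR fits, the targeted gene passed the threshold in the one that carried the term. Leaving out fl/fl replicate 1 or ΔK14 replicate 2 from that fit ended the call, at adjusted p = 0.307 and 0.212 in edgeR.

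Neither expressed paralog of Zfp36 was called. Zfp36l1, which encodes a related ARE-binding protein, was at 466, 276 and 350 CPM in fl/fl and 566 and 324 CPM in ΔK14. Its log2 fold change with the term was 0.15 (SE 0.19, edgeR adjusted p = 0.885). Zfp36l2 was at 165, 390 and 477 CPM in fl/fl and 148 and 379 CPM in ΔK14, and differed by −0.18 log2 with the term (SE 0.18, edgeR adjusted p = 0.848). Like Zfp36, Zfp36l2 was low in replicate 1 of both genotypes, whereas Zfp36l1 was higher there. Zfp36l3 had no count in any mock library, which allows up to 3 counts in each. Of the other genes of mRNA decay on the list, which include the CCR4-NOT deadenylase and the exosome, none was called, and the levels of Cnot1, the scaffold of that deadenylase, were 435, 348 and 339 CPM against 369 and 274 CPM.

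**Figure D1:**
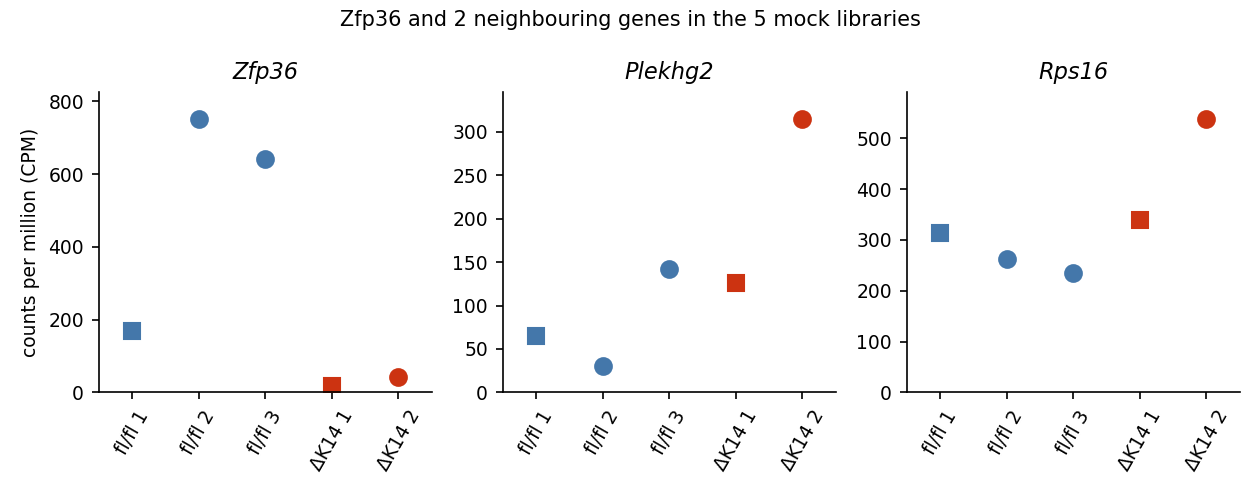
Levels of Zfp36, Plekhg2 and Rps16 in CPM (vertical axes from 0) in each of the 5 mock libraries, with fl/fl in blue, ΔK14 in red and replicate 1 as squares. Zfp36 is at 18.2 and 41.5 CPM in ΔK14 against 169 to 751 CPM in fl/fl, whereas Plekhg2 overlaps between the genotypes.

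Among 18 tested genes within 250 kb of Zfp36, Plekhg2 had the largest fold change after Zfp36 with the term. It lies at chr7:28359604-28372599 on the same strand, 4185 bases beyond the 3′ end of Zfp36. Plekhg2 was at 65.4, 30.5 and 142 CPM in fl/fl and at 126 and 314 CPM in ΔK14. Replicate 1 of ΔK14 lay below fl/fl replicate 3, so the groups overlapped. The log2 fold change with the term was 1.48 (SE 0.50, edgeR adjusted p = 0.632), and it depended on the libraries. It was 1.06 without fl/fl replicate 2 (edgeR adjusted p = 0.027), 2.15 without fl/fl replicate 3 (edgeR adjusted p = 0.121) and 0.93 without ΔK14 replicate 2 (edgeR adjusted p = 1.0). In treated skin and in tumors, which share no library with mock skin, the log2 fold changes were 3.17 (edgeR adjusted p = 0.221) and 3.59 (edgeR adjusted p = 0.0287). Rps16, a gene of the small ribosomal subunit on the opposite strand, was at 314, 263 and 235 CPM in fl/fl and 339 and 537 CPM in ΔK14, and its log2 fold change was 0.69 (SE 0.24, edgeR adjusted p = 0.632). Both ΔK14 libraries lay above all fl/fl libraries in Rps16, by little in replicate 1. Gm44710, a gene model on the opposite strand that overlaps Zfp36, was at 10.6, 7.0 and 21.2 CPM in fl/fl and 7.39 and 16.3 CPM in ΔK14, with overlap. Supt5 and Med29, genes of transcription elongation and of the Mediator complex, had log2 fold changes of −0.03 and 0.09 and were not called.

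The 5 libraries divided by replicate number before they divided by genotype. Between fl/fl replicate 1 and ΔK14 replicate 1, 473 of 15920 genes differed by more than 2-fold in CPM (2 CPM added), and between fl/fl replicates 2 and 3 it was 481. ΔK14 replicate 2 differed from fl/fl replicates 2 and 3 in 815 and 1118 genes. Across the split, any replicate 1 library differed from any other library in 3910 to 4914 genes, whether or not the genotypes were the same. Over all tested genes the split alone took 78.8% of the sum of squares of log2 CPM. Genotype took a further 9.45% on 1 degree of freedom, and the residual held 11.8% on 2, or 5.89% each. These shares are descriptions, since the split was noticed in the same data.

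**Figure D2:**
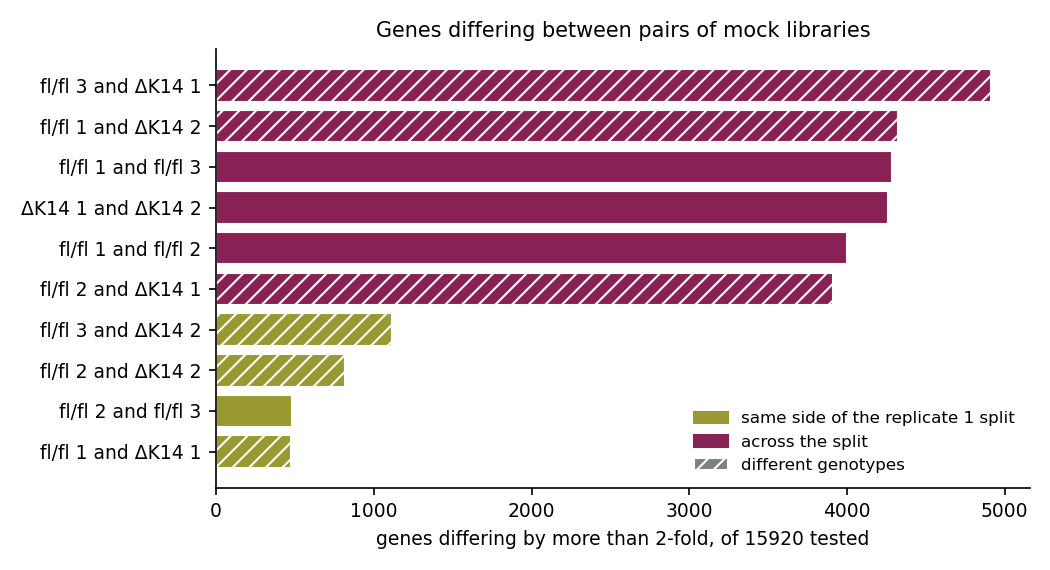
Number of genes differing by more than 2-fold (horizontal axis, of 15920 tested) for each of the 10 pairs of mock libraries, with pairs across the replicate 1 split in purple, pairs on the same side in olive and pairs of different genotype hatched. The 6 pairs across the split differ in 3910 to 4914 genes and the other 4 in 473 to 1118.

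Replicate 1 of both genotypes held more mRNA of many genes of the growing follicle and less of many epidermal genes. In 893 genes (5.61% of those tested) both replicate 1 libraries lay at least 2-fold above all others, and in 1253 (7.87%) they lay at least 2-fold below. Krt71, an inner root sheath keratin, stood at 637 and 494 CPM in replicate 1 of fl/fl and ΔK14 and at 0.618, 0.398 and 1.55 CPM in fl/fl replicates 2 and 3 and ΔK14 replicate 2. Krt25 and Krt28, which encode its partner keratins of the same layer, ran at 500 and 671 CPM and at 317 and 278 CPM in replicate 1, against at most 1.94 CPM elsewhere. Of 20 regulators of the hair matrix, 11 lay 2-fold above in replicate 1 and 2 lay 2-fold below. Dlx3, a homeobox gene needed for shaft formation, was at 237 and 214 CPM against 1.16 to 1.44 CPM, and Msx2 was at 126 and 97.8 CPM against 3.50 to 5.42 CPM. Lef1, the Wnt effector of the matrix, was at 221 and 204 CPM against 2.39 to 6.18 CPM, and Shh, the ligand made by growing follicles, was at 24.5 and 21.03 CPM against at most 0.824 CPM.

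Summed over the inner root sheath and companion layer list (11 of 12 genes tested), replicate 1 of fl/fl was at 2684 CPM and replicate 1 of ΔK14 at 2407 CPM, while the other 3 libraries held 25.5 to 34.9 CPM. In that list 9 genes lay 2-fold above the others in replicate 1, and the other 2, Krt72 and Prss53 (at 4.78 to 5.81 CPM in all 5 libraries), did not. Hair shaft keratins summed to 258 and 206 CPM against 8.03 to 13.6 CPM, with 7 of 9 genes 2-fold above, and Krt32 and Krt84 were the ones that were not. Of 32 proliferation genes 21 lay above, and their sum was 4567 and 4080 CPM against 1023 to 1778 CPM. Mki67, a marker of cycling cells, was at 726 and 844 CPM in replicate 1 and at 445, 263 and 89.5 CPM in the other libraries. Melanocyte genes, whose products make the pigment of anagen hair, summed to 480 and 400 CPM against 63.1 to 149 CPM.

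Many genes of the interfollicular epidermis were on the other side of the split. Basal keratinocyte genes summed to 5120 and 5047 CPM in replicate 1 and to 22059 to 25313 CPM in the others, with 10 of 14 genes 2-fold below. Of 18 differentiation genes 8 lay 2-fold below and 1 above. Krt10, the keratin of the first differentiated layer, was at 467 and 405 CPM against 3492 to 4628 CPM. Genes of the infundibulum and isthmus in the upper follicle summed to 840 and 939 CPM against 1331 to 1612 CPM, with 4 of 8 genes 2-fold below. The list of bulge and hair germ, where the follicle's stem cells rest, went both ways, with 4 of 17 genes 2-fold above and 5 below and a median difference of 0.27 log2. Fcgbp (162 and 114 CPM against 2669 to 3008), Il33, an epithelial alarmin (9.85 and 9.66 CPM against 187 to 237), and Cav1, the caveolar coat gene (23.8 and 11.9 CPM against 319 to 371), were among the 10 genes with the largest differences below. Of 16 clock genes 5 lay 2-fold below in replicate 1 and 1 above. Nr1d1, which encodes the repressor REV-ERBα, was at 26.6 and 23.0 CPM in replicate 1 against 217 to 325 CPM, and the summed list was at 448 and 433 CPM against 1025 to 1264 CPM. The hour of sampling is not in the labels, and its part in the split was not tested.

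**Figure D3:**
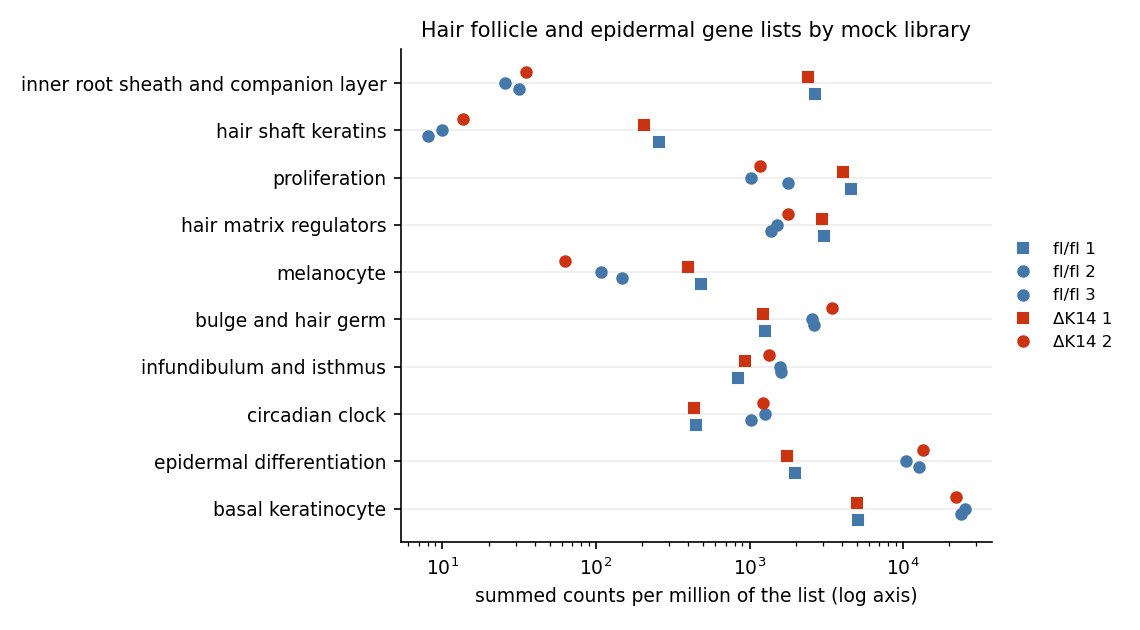
Summed CPM (log axis) of 10 gene lists in each mock library, with fl/fl in blue, ΔK14 in red and replicate 1 as squares. In each list both squares stand together and apart from the circles, from 2684 and 2407 CPM against 25.5 to 34.9 CPM in the inner root sheath list to 5120 and 5047 CPM against 22059 to 25313 CPM in the basal list.

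The difference between replicate 1 and the other libraries was alike in the genotypes. Across genes, the difference within fl/fl and that within ΔK14, which share no library, had a Pearson r of 0.843 over 15920 genes. Genes are not independent replicates, so no p is given. Of 3966 genes that differed by more than 2-fold within fl/fl, 97.5% had the same sign within ΔK14. A genotype difference that depends on the side of the split was tested as an interaction, with 1 residual degree of freedom. That test called 0 of 15920 genes, with 926 at an unadjusted p under 0.05 and a smallest adjusted p of 0.784 in edgeR.

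Within the follicle lists the genotype difference was small beside the split. For the inner root sheath list the median log2 fold change with the term was −0.16, for hair shaft keratins −0.29, for hair matrix regulators −0.05 and for proliferation 0.03, while the median of all tested genes was −0.04. Across these 4 lists 72 genes were tested and none was called. At an unadjusted p under 0.05, 1 was higher and 3 were lower in ΔK14, against 4.33% and 2.49% of all genes. Padi3, a peptidylarginine deiminase of the inner root sheath, was one of them, at 72.9 CPM in fl/fl replicate 1 and 37.8 CPM in ΔK14 replicate 1 and at 0 in the other 3 libraries. Its fitted difference, −0.94 log2 (SE 0.33, edgeR adjusted p = 0.669), therefore rested on the replicate 1 libraries alone. Bmp4, a signal of the dermal papilla and matrix, was at 41.9, 60.6 and 58.8 CPM in fl/fl and 71.9 and 70.9 CPM in ΔK14 (log2 fold change 0.48, SE 0.19, edgeR adjusted p = 0.697). Without the term the same lists gave medians of 0.22, 0.31, 0.30 and 0.15. The sign differed between the fits in 3 of the 4 lists. High follicle genes were in 1 of 2 ΔK14 libraries and in 1 of 3 fl/fl libraries.

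The number of genes called between genotypes was 0 of 15920 (0%) without the term, where a call needed more than a 2-fold change with an adjusted p below 0.05. In that edgeR fit 253 genes had an unadjusted p under 0.05, and DESeq2 and edgeR's exact test called 3 and 2. With the term the call was 6 genes (0.0377%), 5 higher and 1 lower in ΔK14. An unadjusted p under 0.05 was found for 690 genes that were higher (4.33%) and 397 that were lower (2.49%). The typical scatter between libraries, as the common biological coefficient of variation, was 0.524 without the term and 0.196 with it. For 13.4% of genes the sign of the genotype difference depended on whether the term was in the fit. Both ΔK14 libraries lay above all fl/fl libraries in 1037 genes (6.51%) and below in 1023 (6.43%). The count of 6 moved with every library, to 0 without fl/fl replicate 1 or ΔK14 replicate 2, to 1 without ΔK14 replicate 1, to 12 without fl/fl replicate 3 and to 424 without fl/fl replicate 2. Of those 424 genes, 261 were pseudogenes and 45 were protein-coding genes outside the repeat group described next.

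The gene called lower was Zfp36, and 4 of the 5 called higher shared a repeated sequence. Gm10800, Gm10801, Gm21738 and Gm26870 belong to a group of 13 annotated gene models on chromosomes 2, 9 and 14 that share at least 10 stretches of 25 bases with Gm10800. The 30 bases below stand in all 13 of them, on 1 strand or the other, and in 0 other annotated genes of GENCODE M21. They are shown because reads from such a stretch cannot be assigned to 1 of these genes.
Shared stretch: cagtgtgcatttctcatttttcacgttttt
As background, this sequence is part of the mouse major satellite repeat, which fills the heterochromatin beside the centromeres. The genes of the group were therefore not separate measurements.

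Gm10800 (chr2:98666547-98667301, minus strand) was at 79.2, 280 and 185 CPM in fl/fl and 462 and 853 CPM in ΔK14, which gave 2.17 log2 with the term (SE 0.25, edgeR adjusted p = 0.0416). Gm21738 (chr14:19415857-19418930) was at 13.7, 46.3 and 36.9 CPM in fl/fl and 90.4 and 176 CPM in ΔK14 (log2 fold change 2.35, SE 0.21, edgeR adjusted p = 0.0175). In both, replicate 1 was the lowest library of its genotype, and the genotypes did not overlap. Over the group, 11 of 13 genes were tested and 4 were called, against 0.0377% of all genes. All 11 were higher at an unadjusted p under 0.05 and without overlap, against 4.33% and 6.51% of all genes. The group was built from Gm10800, a gene called in these data, and its members share sequence, so they count as 1 pattern. The group summed to 118, 411 and 282 CPM in fl/fl and 726 and 1349 CPM in ΔK14. The group's share of all counts was 0.0126%, 0.0416% and 0.0295% in the fl/fl libraries and 0.0716% and 0.117% in the ΔK14 libraries. In tumors, where fl/fl replicates 1 and 3 were the shallow libraries, fl/fl held 0.311%, 0.134% and 0.306% and ΔK14 held 0.169%, 0.0411% and 0.0338%. Within each stage and genotype except treated ΔK14 skin, the shallowest library held the largest share. In treated ΔK14 skin the deepest library (6407008 counts) held 0.021% and the shallowest (4786594 counts) 0.0103%. Tumor libraries of 6925500 counts (fl/fl) and 6946551 counts (ΔK14) held 0.134% and 0.0411%. The part of depth was not tested. Gm10800 and the other called members lost the call without ΔK14 replicate 1, ΔK14 replicate 2 or fl/fl replicate 1 (edgeR adjusted p 0.269 to 0.973). Their log2 fold changes there were 1.85 to 3.02, against 2.17 to 2.58 with all 5 libraries, and in each of these fits the genotype difference rested on 1 ΔK14 library. With RLE scaling in place of TMM, Gm10800 alone of the 4 lost the call (2.17 log2, edgeR adjusted p = 0.0626).

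Hist1h2al, annotated as a processed pseudogene of a histone H2A gene (chr13:51202727-51203065, minus strand), was the other gene called higher. It held 7 counts in each of the 3 fl/fl libraries and 77 and 41 counts in the ΔK14 libraries, or 0.862, 1.44 and 0.697 CPM against 21.9 and 15.9 CPM. The log2 fold change was 4.26 (SE 0.42, edgeR adjusted p = 0.0175). Gm44341, a predicted miRNA gene that overlaps it on the other strand (chr13:51202698-51202835), held 7, 6 and 7 counts against 48 and 22. Reads from overlapping genes cannot be told apart here, since the use of strand is not given in the sources used. High counts were also found in a fl/fl library, since in treated skin fl/fl replicate 3 held 220 counts of Hist1h2al, and the other 5 treated libraries held 4 to 14. Tpm3-rs7, a tropomyosin-related sequence, had 5.42, 10.7 and 6.07 CPM in mock fl/fl, 34.9 and 31.4 CPM in mock ΔK14 and 21.5 CPM in that treated fl/fl library, where the other 5 held 4.61 to 8.15 CPM.

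Because no library is shared between them, the replicate 1 pair and the other 3 libraries give the genotype difference separately. Over 2-fold differences in both were found in 118 genes, of which 106 were higher in both, 4 lower in both and 8 of opposite sign. Of the 106, 69 were pseudogenes, 22 protein-coding, 7 small RNA genes, 5 ribosomal or mitochondrial RNA genes, 2 long non-coding RNA genes and 1 of another class. Among the 22 protein-coding genes were members of the satellite group and the mitochondrial genes mt-Atp6, mt-Atp8 and mt-Co3. For mt-Atp6, a subunit of ATP synthase, levels were 42.9, 81.8 and 30.8 CPM in fl/fl and 204 and 124 CPM in ΔK14. The 4 lower in both were Zfp36, Gm44562, Slit2 and Lama2. Slit2, an axon guidance ligand, was at 4.43, 20.8 and 8.26 CPM in fl/fl and 1.14 and 4.65 CPM in ΔK14. Lama2, a laminin chain of mesenchymal basement membranes, was at 5.17, 36.3 and 12.3 CPM against 1.42 and 9.68 CPM. Both were low-count genes and neither was called (edgeR adjusted p = 0.621 and 0.672). Gm44562 was at 1.79 to 3.09 CPM in fl/fl and at 0 in both ΔK14 libraries.

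Across all tested genes the differences in the replicate 1 pair and in the other libraries had a Pearson r of 0.160. Over the 12426 protein-coding genes outside the satellite group r was −0.00894. In those genes, over 2-fold differences in both had the same sign in 15 and the opposite sign in 4. Genes share the same 5 libraries, so these correlations are descriptions without a p.

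**Figure D4:**
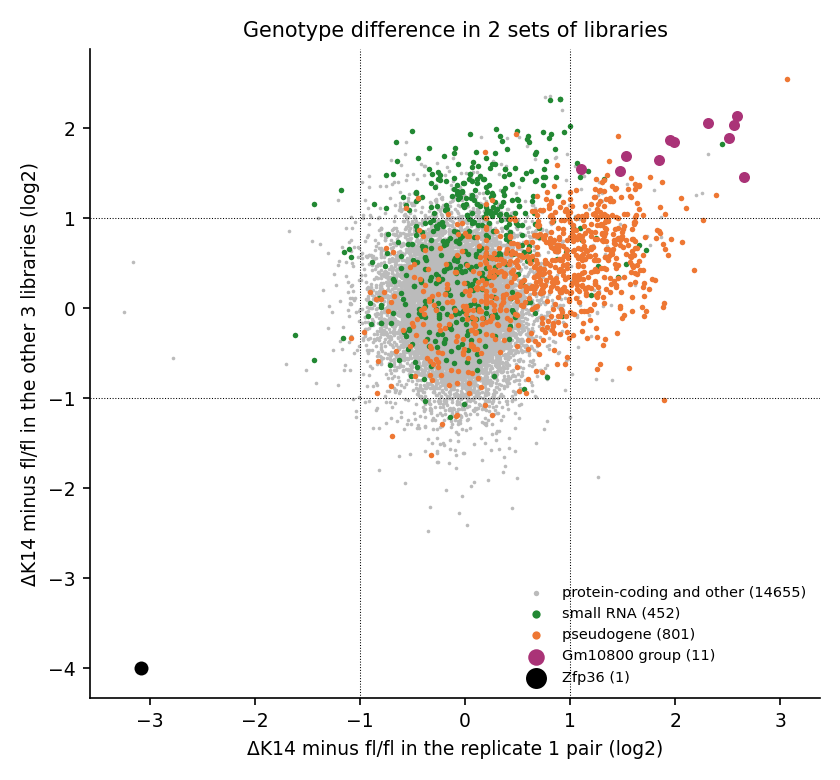
Log2 difference between ΔK14 and fl/fl in the replicate 1 pair (horizontal axis) and in the other 3 libraries (vertical axis) for each of 15920 tested genes, coloured by gene class, with dotted lines at 2-fold. Zfp36 stands alone at −3.08 and −4.0, the 11 tested genes of the Gm10800 group are high on both axes, and pseudogenes lie to the right of the protein-coding cloud.

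The gene classes differed in how often their members were higher in ΔK14. Of 801 pseudogenes 273 (34.1%) were higher and 6 were lower at an unadjusted p under 0.05 with the term, against 4.33% and 2.49% of all genes, and their median log2 fold change was 0.92. Small RNA genes were higher in 101 of 452 (22.4%), with a median of 0.56, and ribosomal and mitochondrial RNA genes in 11 of 35. Protein-coding genes were higher in 252 of 12436 (2.03%) and lower in 340 (2.73%), with a median of −0.06. In log2 CPM with 2 CPM added, which is another scale, the median pseudogene difference was 0.83 in the replicate 1 pair and 0.42 in the other libraries. That of small RNA genes was 0.03 and 0.72. Mitochondrial genes took 6.06%, 5.31% and 3.35% of all counts in fl/fl and 10.4% and 7.07% in ΔK14. Nuclear ribosomal RNA genes took 2.67%, 3.24% and 1.95% in fl/fl and 4.44% and 6.78% in ΔK14. Both shares were higher in the ΔK14 libraries, which were also the shallower ones, and the part of depth or RNA quality in these results was not tested.

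Ribosomal protein genes were the protein-coding list with the most uniform difference. Of 81 tested, 50 were higher and 0 lower at an unadjusted p under 0.05, and 58 lay above fl/fl without overlap, against 6.51% of all genes. None was called. Rps27, a small subunit gene, was at 360, 389 and 324 CPM in fl/fl and 521 and 673 CPM in ΔK14 (log2 fold change 0.76, SE 0.19, edgeR adjusted p = 0.551). Rpl4, a large subunit gene and the most abundant of the list, was at 1756, 1433 and 1367 CPM against 2080 and 1533 CPM, with overlap. The list's median difference was 0.17 in the replicate 1 pair and 0.72 in the other libraries. Many pseudogenes are copies of ribosomal protein mRNAs and share reads with them, so these levels are uncertain.

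Transcript length was measured beside this. With the 12421 protein-coding genes that had an annotated length (outside the satellite group) in 5 bins of like size by their longest transcript, the median difference in the other 3 libraries ran from 0.22 log2 in the shortest bin (up to 2006 bases) to −0.28 log2 in the longest (from 5351 bases). In the replicate 1 pair it stayed between −0.06 and −0.10. At an unadjusted p under 0.05 with the term, the shortest bin held 124 higher (4.99%) and 15 lower (0.603%) genes. The longest held 12 higher (0.483%) and 203 lower (8.17%). Over all genes the shares were 4.33% and 2.49%, and over protein-coding genes 2.03% and 2.73%. Ribosomal protein mRNAs are short, and the length trend was in the same libraries as their larger difference. The part of length in the ribosomal protein difference was not tested. By the same bins, the median edgeR genotype difference in treated skin ran from 0.07 log2 in the shortest to −0.06 log2 in the longest. In tumors the values of these 2 bins were 0.03 and −0.02 log2. Whether the trend in mock skin came from genotype, from RNA quality or from library making was not tested. With ΔK14 replicate 2 as the single knockout library on that side of the split, these cannot be told apart in mock skin.

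**Figure D5:**
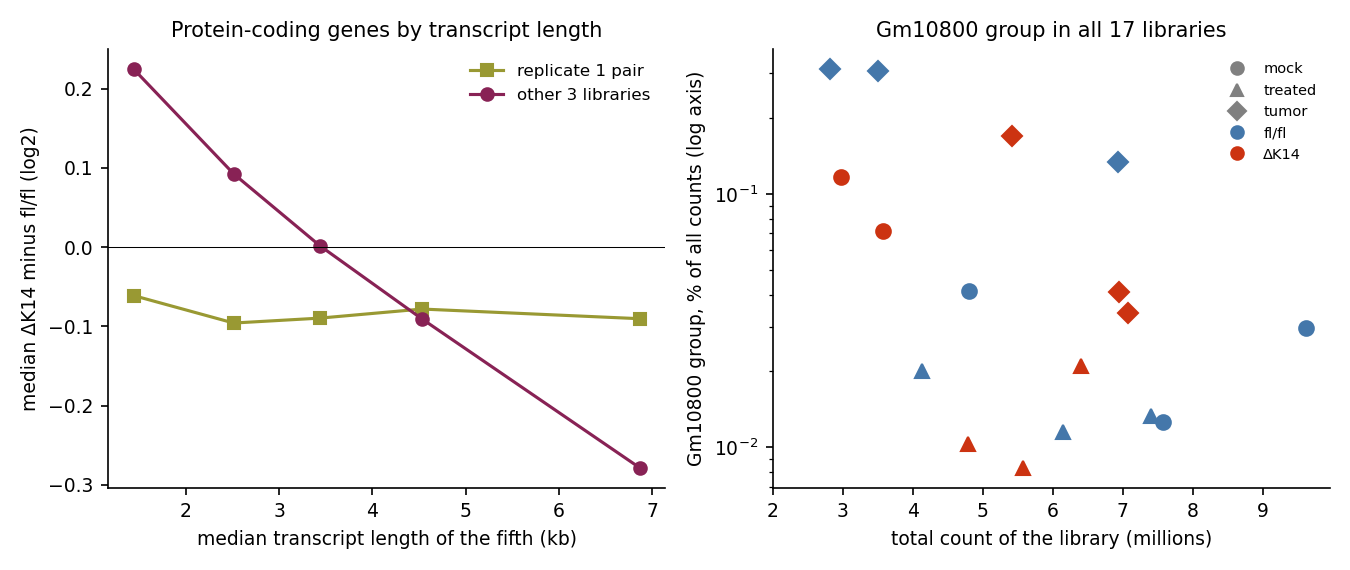
Left, median log2 difference between ΔK14 and fl/fl (vertical axis) of protein-coding genes in 5 bins of transcript length (kb), for the replicate 1 pair and for the other 3 libraries, which run from 0.22 to −0.28 while the pair stays between −0.06 and −0.10. Right, share of counts in the Gm10800 group (%, log axis) against total count in all 17 libraries, with the mock ΔK14 libraries at 0.0716% and 0.117%.

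Of 26 mRNAs known as TTP targets, 23 gene IDs were tested, and 0 were called. At an unadjusted p under 0.05, 1 was higher and 1 was lower, against 4.33% and 2.49% of all genes, so neither count was far from the share over all genes. The median edgeR log2 fold change with the term was 0.37, against −0.04 for all genes. In log2 CPM with 2 CPM added, which is another scale, the median was 0.10 in the replicate 1 pair and 0.24 in the other libraries. The medians of all genes on that scale were −0.07 and 0.01. Plau, which encodes urokinase, was the one that was higher, at 188, 41.8 and 40.2 CPM in fl/fl and 289 and 72.8 CPM in ΔK14. It was higher in ΔK14 on both sides of the split, by 0.62 and 0.80 log2, but its groups overlapped because replicate 1 was high in both genotypes. Its log2 fold change with the term was 0.73 (SE 0.17, edgeR adjusted p = 0.501). Lats2, a kinase of the Hippo pathway listed under 2 gene IDs, had the lower one (log2 fold change −0.50, SE 0.22, edgeR adjusted p = 0.722).

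Tnf was at 19.5, 3.91 and 3.48 CPM in fl/fl and 33.8 and 4.26 CPM in ΔK14. Its level followed the split, with replicate 1 high in both genotypes, and the genotype difference was 0.74 log2 in the replicate 1 pair and 0.14 log2 in the others (log2 fold change with the term 0.58, SE 0.29, edgeR adjusted p = 0.722). The chemokine gene Cxcl1 had the same form, at 42.9, 13.8 and 9.56 CPM against 65.1 and 12.01 CPM. Areg, which encodes the EGF receptor ligand amphiregulin, was at 15.5, 10.7 and 10.2 CPM in fl/fl and 17.9 and 18.2 CPM in ΔK14. Both ΔK14 libraries were above all fl/fl libraries, as in 6.51% of all genes, and the log2 fold change was 0.53 (SE 0.26, edgeR adjusted p = 0.722). Ereg, a ligand of the same receptor, lay without overlap too, at 1.72, 1.44 and 1.20 CPM against 3.13 and 2.71 CPM (edgeR adjusted p = 0.742). Of 7 tested genes of EGF receptor ligands, 2 lay above and 1 below fl/fl without overlap. At an unadjusted p under 0.05 with the term, 0 were higher and 1 was lower, against 4.33% and 2.49% of all genes. Fos, an immediate early gene with the nonamer shown above, was at 1114, 1970 and 2426 CPM against 1084 and 2170 CPM, and its log2 fold change was −0.03 (SE 0.21). Other immediate early genes, Jun, Egr1 and Dusp1, were within 0.03 log2 of 0 with the term.

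Of 21 genes that the study names in epidermal cells, 12 were tested and none reached an unadjusted p of 0.05. The growth factor gene Vegfa was at 33.9, 49.4 and 35.5 CPM in fl/fl and 34.4 and 31.0 CPM in ΔK14. S100a8 and S100a9, which encode alarmins of inflamed skin, were at 2.34 CPM or less in every mock library, and Klk6 and Serpinb3a were at 0.387 CPM or less. Inflammation and alarmin genes gave 13 tested, with 0 called and 1 higher at an unadjusted p under 0.05, against 4.33% of all genes. This was Stfa1, at 0.246, 5.15 and 3.09 CPM in fl/fl and 1.42 and 9.30 CPM in ΔK14.

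AU-rich elements were counted in all tested genes with an annotated 3′ UTR. The heptamer TATTTAT stood in 30.6% of 12329 genes. It stood in 17.4% of the 230 genes that were higher in ΔK14 at an unadjusted p under 0.05 and in 41.7% of the 338 that were lower. The nonamer TTATTTATT, which contains the heptamer, stood in 8.13% of all genes, in 3.04% of the higher and in 10.9% of the lower. The 1002 genes with a nonamer had a median log2 fold change of −0.10 with the term, and the 8557 genes with neither motif had one of −0.05. The order of these medians differed between the sides of the split. In the replicate 1 pair they were −0.06 and −0.10, and in the other libraries −0.11 and 0.02. A longer UTR holds more motifs by its length alone, and the median 3′ UTR was 626 bases in the higher genes, 2250 bases in the lower genes and 1378 bases in all. Motif shares and 3′ UTR length thus differed between the same gene sets, and their separate parts were not tested. The length trend described above was by whole transcript and not by 3′ UTR.

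Among lists of other cell types, fibroblast genes had 4 of 10 lower at an unadjusted p under 0.05, against 2.49% of all genes, and a median log2 fold change of −1.01. The median difference was −1.08 log2 in the replicate 1 pair and −0.14 log2 in the other libraries. Postn, which encodes a matricellular protein and stood in the bulge list as well, was at 29.4, 464 and 300 CPM in fl/fl and 14.2 and 180 CPM in ΔK14 (log2 fold change −1.07, SE 0.24, edgeR adjusted p = 0.485). Col3a1 was at 117, 376 and 121 CPM against 15.3 and 144 CPM, and Dcn, the gene of the proteoglycan decorin, was at 937, 102 and 48.5 CPM against 1025 and 81.4 CPM. The collagens were thus low in ΔK14 replicate 1 while decorin followed the split. The summed list ran from 913 to 2422 CPM in fl/fl and from 1114 to 1339 CPM in ΔK14, so the groups overlapped. Leukocyte genes summed to 20.1, 35.8 and 24.9 CPM in fl/fl and 18.2 and 56.6 CPM in ΔK14. Cd3e and Ptprc were at 0 in both ΔK14 libraries. H2-Ab1 was the 1 of 5 tested leukocyte genes that was higher at an unadjusted p under 0.05, against 4.33% of all genes. Endothelial, muscle and Merkel cell lists had 5, 1 and 1 tested genes, with none at an unadjusted p under 0.05, and melanocyte genes had 1 of 10 lower (Mitf). Keratin-associated proteins, with 3 of 57 genes tested, had none either.

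Epidermal lists held genes in both directions. Of 18 tested differentiation genes, Sbsn and Krtdap were higher and Ivl and Dsc1 were lower at an unadjusted p under 0.05. Over all genes 4.33% were higher and 2.49% were lower at that threshold. Ivl, the cornified envelope gene involucrin, was at 17.7, 18.9 and 20.9 CPM in fl/fl and 10.8 and 5.04 CPM in ΔK14. All fl/fl libraries were above both ΔK14 libraries, as in 6.43% of all genes, and the fit with the term gave −1.30 log2 (SE 0.34, edgeR adjusted p = 0.578). None of 14 basal keratinocyte genes reached an unadjusted p of 0.05, and Krt14 differed by −0.03 log2 with the term. Plet1, a gene of the upper follicle, was at 60.1, 121 and 170 CPM in fl/fl and 95.5 and 320 CPM in ΔK14 (log2 fold change 0.94, SE 0.21, edgeR adjusted p = 0.485). The remaining lists of bulge and hair germ, EGF receptor ligands, immediate early genes, sebaceous gland, hypoxia with glycolysis, interferon response and clock genes each had at most 1 higher gene and 2 lower genes at that threshold.

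Treated skin and tumors gave libraries that the mock comparison did not use. The edgeR test between genotypes called 1 gene in treated skin and 4 in tumors. Zfp36 was lower there by 3.99 log2 (edgeR adjusted p = 0.0391) and 4.10 log2 (edgeR adjusted p = 0.00882) in ΔK14. Of the 106 genes more than 2-fold higher on both sides of the mock split, 71 of 100 tested were higher in treated ΔK14 skin, with none over 2-fold, and 0 of 102 tested were higher in ΔK14 tumors. The median there was −0.88 log2. Of all pseudogenes tested in mock skin, 442 of 648 had the same sign of genotype difference in treated skin as in mock skin (median 0.13). In tumors 79 of 590 had the same sign as in mock skin (median −0.68). Protein-coding genes that were lower in mock ΔK14 skin at an unadjusted p under 0.05 were lower in 254 of 332 in treated skin and in 115 of 299 in tumors. The share of all tested genes with the same sign between stages was not computed. The counts of like sign given here thus have no background share and are descriptions. Total counts were 4124233 to 7404684 in treated fl/fl and 4786594 to 6407008 in treated ΔK14, and 2808550 to 6925500 in fl/fl tumors against 5412205 to 7069660 in ΔK14 tumors. In tumors 2 of the 3 fl/fl libraries were shallower than every ΔK14 library.

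With these 5 libraries the genotype difference could be told from the replicate 1 split as far as the design was crossed, since each genotype had a library on either side. The split contributed 3723 genes with an average difference over 2-fold in log2 CPM with 2 CPM added. On that scale the genotype difference exceeded 2-fold in 473 genes in the replicate 1 pair and in 810 in the other libraries. The edgeR genotype coefficient with the term, without those 2 CPM, exceeded 2-fold in 895 genes. That last count is not on the same scale as the count for the split. Entering the term moved the genotype log2 fold change by a median of 0.09 over all genes and by 0.42 over the 245 genes whose split difference was over 8-fold. Each side held a single ΔK14 library, and the replicate 1 side held a single fl/fl library, so a difference seen on 1 side only cannot be told apart from that library. Zfp36 was the one protein-coding gene outside the satellite group that passed in the fit with the term.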

How the data were processed

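RNA-seq libraries of mouse epidermal cells were made with the Ovation SoLo kit. The authors deposited 1 table of raw read counts per Ensembl gene. The submitters' processing notes name Trimmomatic 0.36, STAR 2.5.3, HTSeq 0.9.1, DESeq2 and the build mm10, whereas the table is labelled as a featureCounts output and the paper names edgeR. The roles of these tools, the use of strand and the removal of duplicates are not given in the sources used here. Near-identical copies, overlapping genes and antisense genes are therefore uncertain. No per-sample column lay outside the labels (0).

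Counts were used as deposited in R 4.3.3 with edgeR 4.0.16 (filterByExpr, TMM, quasi-likelihood F test, two-sided, Benjamini-Hochberg adjustment over 15920 genes) and DESeq2 1.42.0. Calls needed more than a 2-fold change with an adjusted p below 0.05. Genotype was fitted alone (3 residual degrees of freedom) and with a term for replicate 1 (2 residual degrees of freedom). CPM are on TMM-scaled library sizes. Differences between libraries used log2 of CPM plus 2. Standard errors (SE) were taken from the fit as the log2 fold change over the root of F. Precision from counts covers counting error only. Of 52636 gene IDs 52489 were matched to GENCODE M21 (GRCm38), and 97 symbols were shared by several IDs.

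The members, the lists, the term for replicate 1 and the tests were chosen with earlier results of these data known. Genes were named by a fixed rule: Zfp36 and its paralogs, genes within 250 kb of it, genes the study names, genes called, the up to 10 in each direction with the smallest p among those over 2-fold on both sides of the split, the 10 in each direction with the largest split, and up to 4 by level and up to 4 by p in each list. Cd3e, Ddx3y, Eif2s3y, Lef1, Msx2, Prss53, Ptprc, Shh, mt-Atp6, mt-Atp8 and mt-Co3 fell outside it and were named after their values were seen. The procedure was tested on simulated data. Alternatives were other tests, scalings, filters, left-out libraries, all 17 libraries in 1 fit and the replicate number as a block.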

Additional observations from a re-analysis of the deposited data

Results flagged for a closer look

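The genotype difference of the satellite-like genes had opposite signs in mock skin and in tumors, in every ΔK14 library when set against the fl/fl mean of its stage (log2 CPM on a scale of all 17 libraries, 2 CPM added). For the sum of the Gm10800 group it was 1.99 in mock skin (2 ΔK14 libraries) and −1.81 in tumors (3 ΔK14 libraries). For Gm10800 it was 1.91 and −1.62, for Gm10801 1.93 and −1.92, for Gm21738 2.00 and −2.01 and for Gm26870 2.08 and −2.08. These 4 genes share sequence, so they count as 1 pattern. The difference between the stages was not tested. In mock skin ΔK14 was the shallower genotype, and in tumors the 2 shallowest libraries were fl/fl. In treated ΔK14 skin the deepest library held the largest share of the group, whereas in every other stage and genotype the shallowest library did. The part of depth was not tested.

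Hist1h2al differed by 2.71 log2 in mock skin, by −1.20 in treated skin and by −0.12 in tumors, again with every ΔK14 library on the same side. This difference between stages was not tested either. The value in treated skin rested on fl/fl replicate 3 (34.2 CPM against 1.54 and 2.58 CPM in the other fl/fl libraries), and tumor libraries held at most 2 counts.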

How the results depend on the processing

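Without the term, the count of 0 became 3 in DESeq2 and 2 in the exact test, 1 without both replicate 1 libraries, and stayed 0 without each single library (0 to 0). Zfp36 was called in DESeq2 (−4.13, adjusted p = 0.000415) and without both replicate 1 libraries (−4.06, edgeR adjusted p = 0.0418). With the replicate number as a replicate block, which left 1 residual degree of freedom, edgeR called 110 genes if the duplicated library was numbered 2 and 436 if it was numbered 3. Zfp36 was called in both blocks, at −3.72 (edgeR adjusted p = 7.86e-33) and −3.59 (6.38e-24), and so was Plekhg2, at 2.12 (3.08e-12) and 1.05 (0.00389). Deviations from the group means correlated at 0.843 for number 1, and at 0.663 or 0.792 for the duplicated library as 2 or 3. With only 2 ΔK14 libraries, their deviations are equal and opposite, so these numbers follow the replicate 1 split and do not pair the samples. The cause of these changes was not tested.

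With the term, the count of 6 became 10 without a low-count filter, 58 in DESeq2, 1 in a single fit of all 17 libraries, 1 among protein-coding genes outside the Gm10800 group (chosen after seeing the data), 5 with RLE scaling, which ended the call of Gm10800, 110 with the block in its place and 0 without the term. Single libraries left out gave 0 to 424 calls. Zfp36 lay between −3.23 and −4.10 with a single library left out, and it was at −4.13 and not called without the term. In the fit with the term without fl/fl replicate 1, the lone ΔK14 replicate 1 was taken up by the term. For the split, 566 genes remained at 4-fold in place of 2146 at 2-fold. DESeq2 called 36 genes in treated skin and 366 in tumors, against 1 and 4 in edgeR. Of the list medians recomputed, 14 moved by more than the spread between libraries and 188 did not. These medians were not recomputed with a library left out. The depth of the ΔK14 libraries limits low-count genes, and the 5 libraries limit every test.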
